A study of Mus musculus with 4 samples.

Results

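Regulators of G-protein signalling (RGS proteins) were followed across the step from mouse hematopoietic stem cell (HSC) to multipotent progenitor (MPP). The set holds 8 genes (Rgs1, Rgs2, Rgs3, Rgs10, Rgs14, Rgs16, Rgs18 and Rgs19) out of 18193 genes named on the array. Every probe set assigned to 1 gene only, with that gene in the set, was taken, which gave 18 of 34945 such probe sets. The 8 genes are a named selection from the RGS family, which has further members on the array, and were chosen with earlier results of these data known. The rule that takes their probe sets uses no measured value. The HSC samples were CD34(-)KSL cells and the MPP samples CD34(+)KSL cells, where KSL is a sort gate for the earliest blood cells (c-Kit positive, lineage marker negative, with a further surface antigen). Both came from C57BL/6 mice with no treatment named in the labels, and age, sex and pooling of animals are not given in the sources used here. Each group had 2 samples named as biological replicates, and RNA equivalent to 3000 cells of each was amplified in 2 rounds and read on 1 Affymetrix Mouse Genome 430 2.0 array. A probe set's value is a signal intensity in arbitrary units, and values of different probe sets cannot be ranked against each other.

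RGS proteins end the signal of G-protein-coupled receptors. A receptor loads the alpha subunit of a G protein with GTP, and the RGS domain speeds the hydrolysis of that GTP, so that alpha rejoins the beta-gamma pair. In blood cells such receptors read chemokines, sphingosine-1-phosphate and prostaglandins, and RGS proteins limit how long cells respond to them. Rgs1, Rgs2, Rgs3, Rgs16 and Rgs18 belong to the R4 subfamily, most of them little more than an RGS domain, Rgs10 and Rgs14 to the R12 subfamily, and Rgs19 to the RZ subfamily.

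Of the 8 genes, 2 were lower in HSC than in MPP, Rgs2 and Rgs10, and none was higher, by limma over all probe sets with Benjamini-Hochberg adjusted p under 0.05. Rgs16 was too dim to test, and the other 5 were not called. Among all 12382 tested genes 13.6% were called, 5.9% lower and 7.71% higher. At an unadjusted p under 0.05, 4 of the 7 were lower and 1 was higher, against 28.7% of all tested genes in either direction. The median log2 difference (HSC minus MPP) of the 7 was -0.58, beside 0.10 for all tested genes. Since the members were chosen with earlier results known, these comparisons with all genes are description only. Both calls ended without MPP replicate 2, as given with each gene below, and both ended without a trend in the prior variance.

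The region upstream of the start of each of the 2 called genes is shown because these are the members whose RNA differed. The bases are the 250 before the gene's start, written 5′ to 3′ along the gene, from RefSeq on build GRCm38.p6. Rgs2 lies on the minus strand at chr1:144004150-144004399 and Rgs10 on the minus strand at chr7:128418173-128418422. Capitals mark matches, on either strand, to any of the motifs named in the next paragraph.
Rgs2: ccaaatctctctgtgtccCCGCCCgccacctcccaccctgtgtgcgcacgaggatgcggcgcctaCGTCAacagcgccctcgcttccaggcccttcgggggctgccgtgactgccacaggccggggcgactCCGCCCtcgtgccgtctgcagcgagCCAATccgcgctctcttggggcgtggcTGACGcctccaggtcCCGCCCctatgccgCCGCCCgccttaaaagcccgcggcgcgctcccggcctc
Rgs10: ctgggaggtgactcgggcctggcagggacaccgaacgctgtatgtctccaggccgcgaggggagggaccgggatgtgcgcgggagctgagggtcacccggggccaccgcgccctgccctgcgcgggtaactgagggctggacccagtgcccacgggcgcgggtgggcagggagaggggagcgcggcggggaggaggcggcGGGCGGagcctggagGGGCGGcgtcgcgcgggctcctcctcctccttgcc

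Windows were found for 5 of the 8 genes, 8 windows in all, and Rgs1, Rgs14 and Rgs18 had none in the table used. Both printed windows were rich in G and C. The share was 72.4% for Rgs2 and 76.4% for Rgs10, against a median of 52.4% over 32851 windows of the same length. CG pairs numbered 30 and 27, against a median of 6. The trait was not particular to the called genes. The windows of Rgs3, Rgs16 and Rgs19 ran from 48.4% (Rgs3) to 74.8% (Rgs19), with 3 to 34 CG pairs. The GC box GGGCGG occurred 4 times for Rgs2 and 2 times for Rgs10. Of all windows 4.09% held at least 4 and 16.7% at least 2. The Rgs16 window and an Rgs19 window held 2 as well. The Rgs2 window also held CCAAT 1 time and TGACG, the core of the cyclic-AMP response element, 2 times, and 33.8% and 3.9% of windows hold them at least as often. Neither window held the full element TGACGTCA (in 1.55% of all windows), the TATA box TATAAA (12.4%), the E-box CACGTG (6.02%), the ETS core CCGGAA (12%), the GATA site AGATAA (9.99%) or the AP-1 site TGANTCA (6.75%). TGACG lies within TGACGTCA, and no other 2 motifs contain one another. These are matches of letters in a sequence and were not measured as binding here.

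Rgs2, which acts with preference on the Gq class of alpha subunits, was the member with the largest log2 difference. Its brightest probe set, 1419248_at, read 733 and 1385 units in HSC and 2055 and 3904 units in MPP. All MPP values lay above both HSC values, but the arrays within each group differed by a larger ratio than the nearest arrays of the 2 groups. The means were 1059 ± 461 and 2980 ± 1307 units (SD, n = 2 each). Rgs2 was 2.80-fold lower in HSC, a log2 difference of -1.49 with SE 0.32 (limma adjusted p = 0.0140). In bulk RNA, fewer cells that express a gene and less RNA per cell cannot be told apart, here and for each gene below.

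A further 2 probe sets of Rgs2 gave the same result. Probe set 1419247_at read 244 and 430 units in HSC and 757 and 1518 in MPP, a log2 difference of -1.71 with SE 0.32 (limma adjusted p = 0.00730). Probe set 1447830_s_at read 377 and 730 in HSC and 1156 and 2231 in MPP, a log2 difference of -1.60 with SE 0.33 (limma adjusted p = 0.0112). On all 3 the order of the arrays was the same, with HSC replicate 1 lowest and MPP replicate 2 highest. The fourth, 1443250_at, read 10.5 and 28.3 in HSC and 1.96 and 29.5 in MPP. It was above background on 1 array of each group and was not called (log2 difference 0.50, SE 0.71, limma adjusted p = 0.718). Background here is the highest signal of bacterial control probe sets on an array, 13.6 to 16.9 units, called the floor below. Of 14 alternatives 10 kept the call of Rgs2. Without MPP replicate 2 the log2 difference of 1419248_at was -1.02 with no call, while 1419247_at and 1447830_s_at were still called (-1.21 and -1.13). Over the 14 alternatives the limma adjusted p of Rgs2 ran up to 0.140. Its lowest value, 5.23e-12, came only from the fit with the replicate number as a block, which was not used as a pairing.

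Rgs1, an RGS protein known from B and T lymphocytes where it dampens the response to chemokines, was not called. Its single probe set read 912 and 1320 units in HSC and 1324 and 2546 in MPP. The higher HSC array and the lower MPP array all but coincided. The log2 difference was -0.74 (SE 0.28, limma adjusted p = 0.128), and it depended on which array was left out. It was -0.27 with no call without MPP replicate 2 and -1.21 without MPP replicate 1, and the latter was called. The lowest limma adjusted p of Rgs1 over its alternatives, 0.00233, came from the replicate block. Rgs1 was also called on leaving out HSC replicate 2 and with array medians made equal (-0.97).

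Rgs18, a regulator abundant in megakaryocytes and platelets, was not called by either of its probe sets. Its brighter probe set, 1420398_at, gave 2194 and 2240 units in HSC and 1836 and 1962 in MPP, and the groups did not overlap. The log2 difference was 0.22 (SE 0.15, limma adjusted p = 0.391), and -0.0099 with array medians made equal. The other probe set, 1449856_at, gave 1817 and 1454 units in HSC and 1201 and 1078 in MPP, a log2 difference of 0.51 with SE 0.17 (limma adjusted p = 0.0829). It was called higher without HSC replicate 2 (0.67, limma adjusted p = 0.0139) and after quantile normalization (0.65).

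Rgs3 occurs in long and short forms, and its tested probe sets differed in sign. Probe set 1425296_a_at read 59.7 and 66.2 units in HSC and 78.7 and 98.1 in MPP, a log2 difference of -0.45 with SE 0.26 (limma adjusted p = 0.339). Probe set 1449516_a_at read 58.5 and 70.8 in HSC and 39.0 and 59.5 in MPP, a log2 difference of 0.37 with SE 0.31 (limma adjusted p = 0.501), with overlapping groups. Neither was called. The remaining 2 probe sets of Rgs3 stayed below the floor on all 4 arrays, with 1.04 to 14.6 units, and were not tested. With the mean of both tested probe sets the log2 difference of Rgs3 was -0.04.

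Rgs16, an R4 member induced by activation in lymphocytes, was at background. Its 3 probe sets read 0.549 to 16.6 units, and only 1 of these 12 values, that of 1455265_a_at on MPP replicate 2, lay above its array's floor of 13.6. None passed the filter on mean level, so no difference is given.

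Rgs10, a small regulator that is mainly an RGS domain acting on the Gi class of alpha subunits, was the other member called lower in HSC. It read 64.0 and 109.9 units in HSC and 196 and 226 in MPP. The HSC arrays differed by more than the MPP arrays, and both HSC values lay below both MPP values. The means were 87.0 ± 32.4 and 211 ± 20.7 units (SD, n = 2 each). Rgs10 was 2.40-fold lower, a log2 difference of -1.26 with SE 0.27 (limma adjusted p = 0.0138). Of 14 alternatives 12 kept the call. Without MPP replicate 2 the log2 difference was -1.17 with no call. Over the alternatives the limma adjusted p of Rgs10 ran up to 0.0972, and its lowest value, 1.69e-05, came from the replicate block.

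Rgs14, which carries besides its RGS domain a Ras-binding region and a GoLoco motif that holds Gi alpha subunits in their GDP form, had the largest difference in the other direction. It read 129 and 136 units in HSC and 68.4 and 90.0 in MPP, with no overlap. The log2 difference was 0.71 (SE 0.25, limma adjusted p = 0.0967), and it was not called in any of 13 alternatives (0.48 to 0.90).

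Rgs19, also known as GAIP, a Gi regulator with a cysteine-rich stretch that anchors it to membranes, lay just outside the threshold. Probe set 1417786_a_at read 332 and 366 units in HSC and 468 and 588 in MPP, a log2 difference of -0.58 with SE 0.19 (limma adjusted p = 0.0777). The second, 1434940_x_at, read 236 and 287 in HSC and 304 and 393 in MPP, a log2 difference of -0.40 with SE 0.21 (limma adjusted p = 0.268). Both had each HSC value below each MPP value. With array medians made equal Rgs19 was called lower (-0.81).

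**Figure D1:**
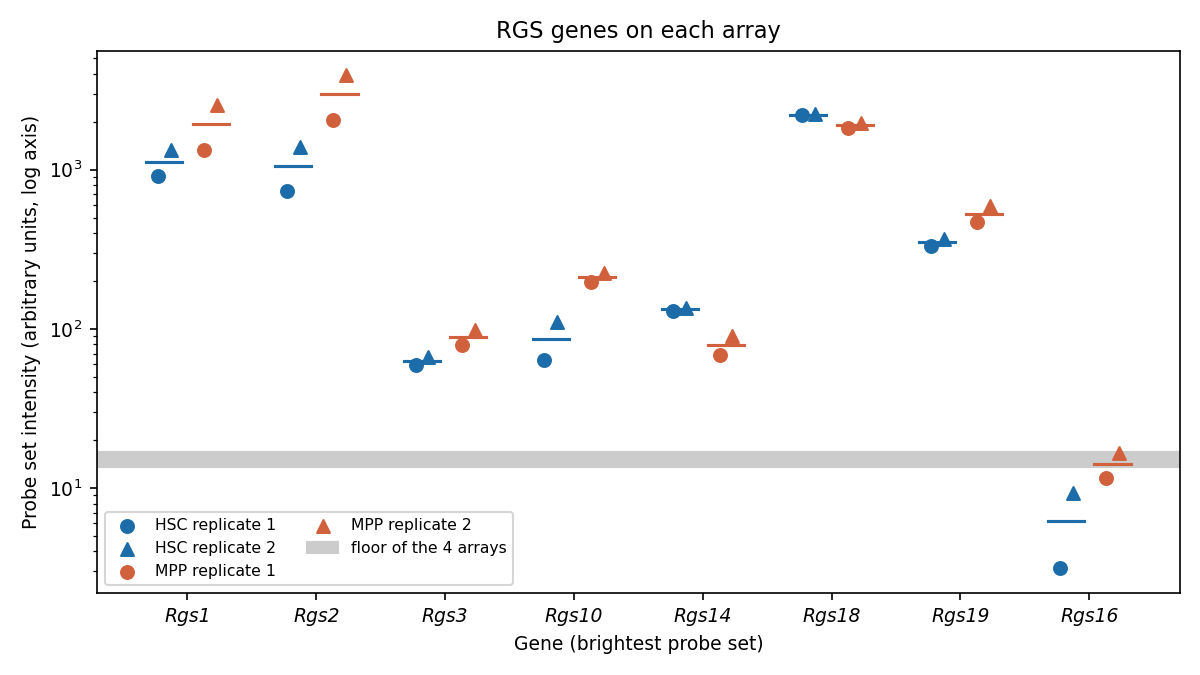
Intensity (arbitrary units, log axis) of the brightest probe set of each RGS gene on the 4 arrays, circles for replicate 1 and triangles for replicate 2, with group means as bars and the floor of the arrays as a grey band. HSC values lie below MPP values for Rgs1, Rgs2, Rgs3, Rgs10 and Rgs19 and above them for Rgs14 and Rgs18, and Rgs16 lies at or below the floor on 3 of 4 arrays.

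For all 7 tested genes the brightest probe set kept HSC and MPP values apart, and the same was true of 11 of 13 tested probe sets. With 2 arrays a group this is common: 58.7% of all tested genes and 54.6% of all tested probe sets had groups that did not overlap. Among tested probe sets 4 of 13 were called lower and none higher, against 4.65% and 5.96% of all tested probe sets (10.6% in either direction), but 3 of the 4 read Rgs2. At an unadjusted p under 0.05, 2 of the 13 were higher.

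**Figure D2:**
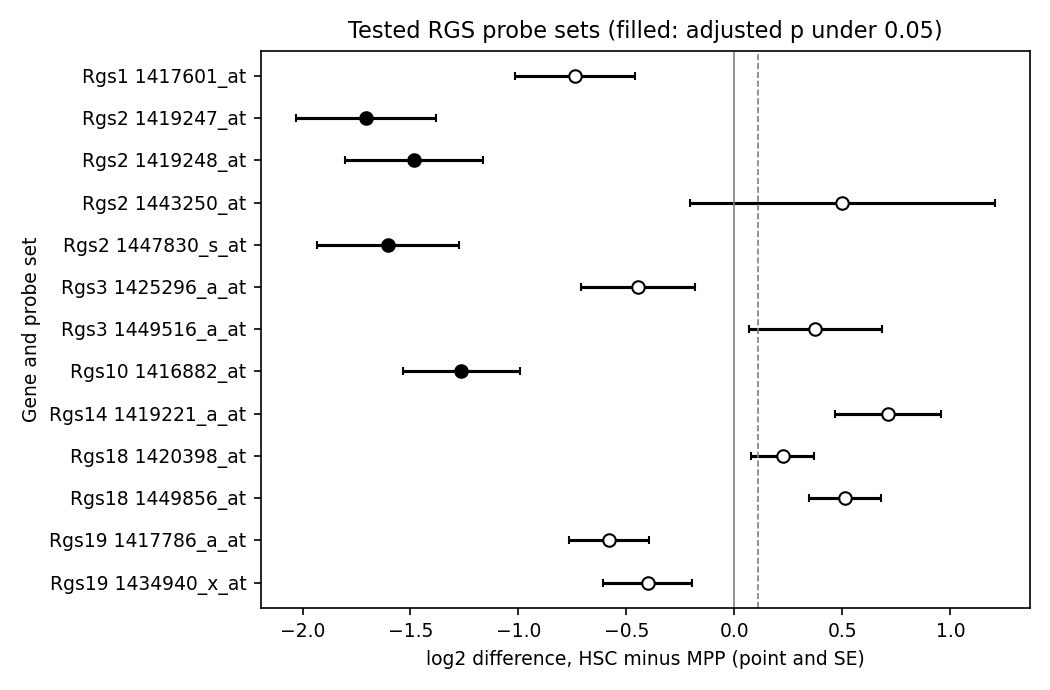
Log2 difference (HSC minus MPP) with its SE for the 13 tested RGS probe sets. Filled points have a limma adjusted p under 0.05, and the dashed line marks the median of all tested probe sets, 0.11. The filled points are 3 probe sets of Rgs2 and the probe set of Rgs10, between -1.71 and -1.26. Above 0 lie 1 probe set each of Rgs2 and Rgs3, the probe set of Rgs14 and both probe sets of Rgs18, none of them called.

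Several of these genes lie side by side on mouse chromosome 1. In the RefSeq gene order the protein-coding run is Uchl5, Rgs2, Rgs13, Rgs1, Rgs21 and Rgs18. Along it Rgs2 was lower in HSC, and neither Rgs1 nor Rgs18 was called. Rgs13, between Rgs2 and Rgs1, read 0.176 to 0.774 units on the 4 arrays, below the floor. Rgs21 had no probe set naming it alone. Uchl5, a deubiquitinase of the proteasome next to Rgs2, read 476 and 345 units in HSC and 752 and 671 in MPP (log2 difference -0.80, limma adjusted p = 0.0260). Uchl5 was no longer called on leaving out HSC replicate 2 (-0.57) or either MPP array (-0.72 and -0.88). Rgs8, the protein-coding neighbour of Rgs16 elsewhere on chromosome 1, read 5.97 to 14.9 units and like Rgs16 was not tested.

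The genes whose profile over the 4 arrays was most like that of a called member were found by the root mean square difference of log2 values, each gene centred on its own mean, among 11643 genes. For Rgs10 they were Ccdc34 (0.074), Enkd1 (0.101) and Ada (0.101), the gene of adenosine deaminase. All 3 were called lower in HSC, with log2 differences of -1.19, -1.25 and -1.19. For Rgs2 they were Rag2 (0.168), a subunit of the V(D)J recombinase, the histone gene H3c4 (0.189) and Diras2 (0.204), a small GTPase. Of these Diras2 alone was called, and Rag2 and Diras2 lay below the floor on both HSC arrays. These are likenesses over 4 arrays, and the calls of Enkd1 and Diras2 ended without either MPP array and those of Ccdc34 and Ada without MPP replicate 2. The call of Diras2 also ended without HSC replicate 1.

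The rest of the G-protein pathway was described from lists of its parts. They were set by function and not by the direction of their genes, but with earlier results of these data known. Among 13 tested genes of other RGS-domain proteins and their partners (22 listed), 1 was higher and none lower, with a median log2 difference of 0.14. The one called was Snx14, a sorting nexin with an RGS-like domain, at 241 and 173 units in HSC and 83.9 and 95.6 in MPP (1.14, SE 0.24, limma adjusted p = 0.0130). Leaving out MPP replicate 1 ended the call of Snx14 (1.05). At an unadjusted p under 0.05, 3 genes of this list were higher, Snx14, Rgs17 (1.17) and Rgs9 (0.78), and none was lower. The 2 tested probe sets of Rgs9 differed in sign, and Rgs17 lay below the floor on both MPP arrays. Of the 3 RhoGEFs with an RGS-like domain, which pass the signal of G12/13 alpha subunits to RhoA, Arhgef12 was 4.57-fold higher in HSC and the others were not called. It read 478 and 605 units in HSC against 114 and 111 in MPP, a log2 difference of 2.19 with SE 0.20 (limma adjusted p = 1.04e-04), and its 3 tested probe sets were all called.

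Of 14 tested alpha subunits 1 was higher and none lower, with a median of 0.20, and at an unadjusted p under 0.05, 3 were higher and none lower. Gnai1, a Gi alpha subunit and so a substrate of RGS proteins, read 72.7 and 71.9 units in HSC and 17.4 and 4.65 in MPP, the last below the floor. The log2 difference was 2.31 (SE 0.43, limma adjusted p = 0.00691), and 1 of its 2 tested probe sets was called. Gnai1 was at 1.17 with no call when probe sets ending in _x_at, _s_at or _a_at were left out. Of 12 tested beta and gamma subunits 1 was higher and none lower, with a median of 0.29, and at an unadjusted p under 0.05, 1 was higher and 2 lower. Gng11, a gamma subunit, read 915 and 802 units in HSC and 244 and 190 in MPP (log2 difference 1.96, SE 0.19, limma adjusted p = 1.42e-04). Without HSC replicate 1, 1 subunit of this list was lower.

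Among chaperones of alpha subunits and GoLoco proteins, 1 of 8 was lower and none higher, with a median of -0.01, and at an unadjusted p under 0.05, 1 was higher and 2 lower. Gpsm1, which binds Gi alpha subunits in their GDP form, read 158 and 224 units in HSC and 346 and 405 in MPP (log2 difference -0.97, SE 0.22, limma adjusted p = 0.0182). All 3 of its tested probe sets were lower and 1 was called. Leaving out MPP replicate 2 ended the call of Gpsm1 (-0.85). None of 7 receptor kinases and arrestins was called by limma, and 1, Grk6, was lower at an unadjusted p under 0.05. The nearest were the kinase Grk6 (-0.43) and arrestin Arrb1 (0.48). With array medians made equal 1 of this list was lower.

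Of 16 tested effectors 5 were higher and none lower, with a median of 0.27, and at an unadjusted p under 0.05, 6 were higher and 1 lower. The adenylyl cyclase Adcy6, which Gi alpha subunits inhibit, read 284 and 210 units in HSC and 85.2 and 71.3 in MPP (log2 difference 1.58, SE 0.24, limma adjusted p = 0.00210). The phospholipase Plcb4, an effector of Gq alpha subunits, read 743 and 592 in HSC and 346 and 332 in MPP (log2 difference 0.96, SE 0.18, limma adjusted p = 0.00763), and 2 of its 4 tested probe sets were called. Without either MPP array, or with array medians made equal, 3 effectors were higher, and Plcb4 was not called without MPP replicate 2 (0.93).

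Receptors moved in both directions. Of 30 tested, 3 were higher and 7 lower, with a median of -0.05, and without MPP replicate 2 the counts were 2 and 4. At an unadjusted p under 0.05, 7 of the 30 were higher and 8 lower. The lysophosphatidic acid receptor gene Lpar6 was 2.37-fold higher in HSC (678 ± 42.5 against 282 ± 1.38 units, SD, n = 2 each). The adhesion receptor gene Adgre5 was 2.90-fold higher (328 ± 113 against 108 ± 29.1, SD, n = 2 each). Lower were Adgrg3, an adhesion receptor, by 5.91-fold (141 ± 35.0 against 856 ± 107) and the sphingosine-1-phosphate receptor gene S1pr3, by 2.14 on the log2 scale (35.9 ± 2.68 against 179 ± 25.8; SD, n = 2 each). All 4 kept their call without any one array. The limma adjusted p was between 6.25e-05 and 0.00558.

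**Figure D3:**
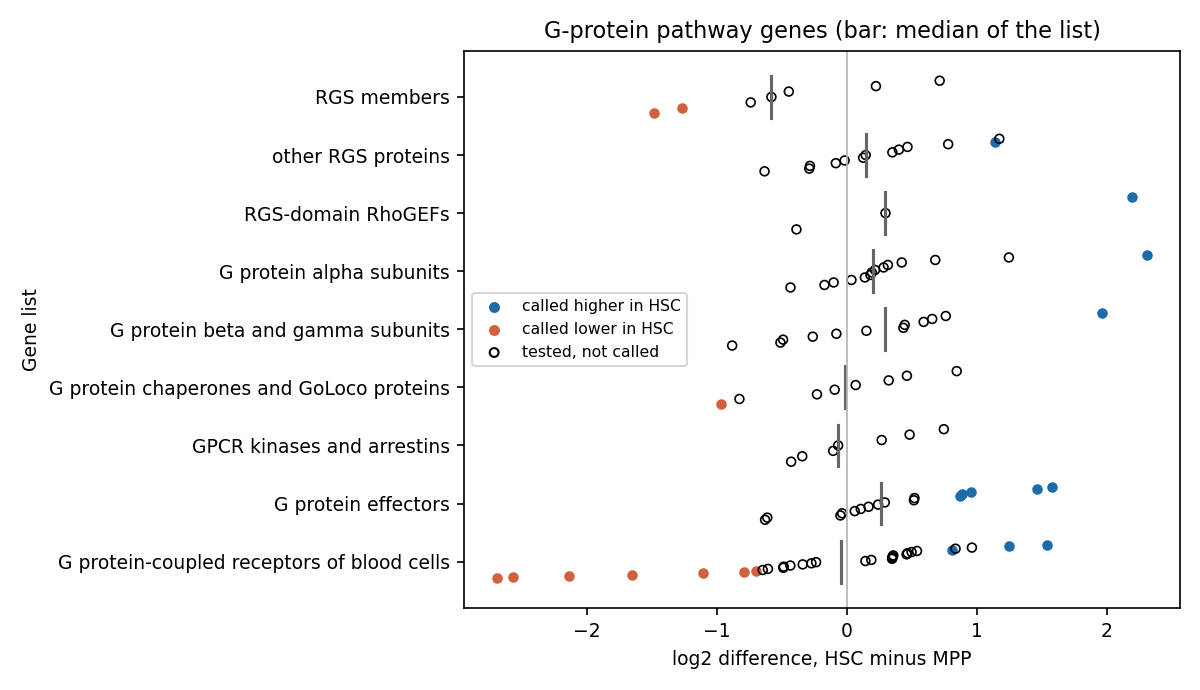
Log2 difference (HSC minus MPP) of each tested gene in the RGS set and in 8 lists of the G-protein pathway, 1 point per gene, with the median of each list as a bar. Blue points were called higher in HSC and orange points lower at limma adjusted p under 0.05. The RGS set has its 2 called genes on the left, the effectors have 5 on the right, and receptors have called genes on both sides.

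Immediate early genes, which cells switch on within minutes of a stimulus, were measured beside the RGS genes, several of which respond to stimuli too. Their summed level (17 genes) was 13497 and 23456 units in HSC and 10354 and 22648 in MPP, so arrays of 1 group differed by more than the groups. Of the 17, 2 were higher in HSC and none lower, against 3 higher and 2 lower at an unadjusted p under 0.05. The 2 called were Egr1, with a log2 difference of 1.31 (limma adjusted p = 0.0372), and Egr2, with 1.49 (limma adjusted p = 0.0275). The call of Egr1 ended without HSC replicate 2 or MPP replicate 1 (0.96 and 0.67) and with array medians made equal (1.08), and that of Egr2 on leaving out either HSC array or MPP replicate 2. Without HSC replicate 2 none was higher, without HSC replicate 1, 1 was lower, and without MPP replicate 1, 2 were lower. The part of this response in the RGS values was not tested.

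Limma called all 8 tested markers of stem cells and progenitors. Cd34, Flt3 and Cd48 were lower in HSC, and Slamf1, Procr, Mecom, Tek and Kit were higher, Kit not in every alternative. CD34 was the gate that parted the groups and c-Kit was required in both, so neither is a check independent of the sort. Several lists of markers of other cells differed between the groups. Megakaryocyte and platelet markers summed to 2390 and 2458 units in HSC and 739 and 524 in MPP (5 of 10 tested higher, 3 without MPP replicate 2), and erythroid markers to 5415 and 5970 against 2070 and 2050 (5 of 6 higher). The largest part of the megakaryocyte and platelet sums in HSC was Vwf, with 920 and 1183 units. In MPP Vwf read 3.82 and 13.4, below the floor. Most of the erythroid sums was Car2, with 4334 and 4225 units in HSC and 1948 and 1943 in MPP. Alas2, Slc4a1 and Hba-a1 were not tested and lay below the floor on both HSC arrays. Of these Hba-a1 alone lay above the floor in MPP. Early myeloid and neutrophil markers summed to 1636 and 1067 in HSC and 6914 and 8165 in MPP (3 of 6 lower). Most of the MPP sums was the called genes, Mpo (3867 and 4658 units), Prtn3 (1990 and 1986) and Ctsg (941 and 1351). Elane, Ltf and Ngp were tested and not called, and S100a8, S100a9 and Camp were not tested. Endothelial and stromal markers summed to 329 and 397 against 173 and 126 (3 of 6 higher, 1 without MPP replicate 2). None of these was called lower, and their log2 differences ran from -1.02 to 2.19. Macrophage and dendritic markers did not move as a list. Their median log2 difference was 0.22 over 6 tested, with 1 called, Csf1r, which was lower, and at an unadjusted p under 0.05, 1 was higher (Mertk, 1.47) and 2 lower. Their sums, 292 and 244 in HSC against 487 and 779 in MPP, followed Csf1r, which read 54.0 and 30.9 against 282 and 552. No B cell marker was called (5 tested, none at an unadjusted p under 0.05), with sums of 205 to 282 in HSC and 204 to 247 in MPP. Of 8 T and NK cell markers 6 stayed below the floor on every array, and the sums were 59.1 to 92.2 in HSC and 57.4 to 71.9 in MPP. Of the other 2, Cd8a, tested by 1 probe set, was higher in HSC at an unadjusted p under 0.05 (0.86) but not called, and changed sign with another of its probe sets (-1.03). Il2rb, not tested, read 1.84 and 2.44 in HSC, below the floor, and 23.2 and 17.4 in MPP. The part of any of these cells in the RGS differences was not tested.

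The median signal of an array was 26.1 and 26.9 units in HSC and 22.0 and 21.3 in MPP, and precision is limited throughout by the number of arrays, 4. On HSC replicate 2 the actin control had a 3′ to 5′ signal ratio of 9.42, against 4.99 to 5.26 on the others. The Gapdh control had a ratio of 5.81 on HSC replicate 2, against 4.88 to 5.15 on the others. Without that array Rgs2 and Rgs10 were still called lower (-1.94 and -1.63). Over all probe sets 1611 were higher and 1257 lower in HSC, or 1020 and 2379 with array medians made equal. The median tested probe set was at 0.11 with values as deposited and at -0.13 with equal medians, and each difference under that setting is to be read against the latter.

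**Figure D4:**
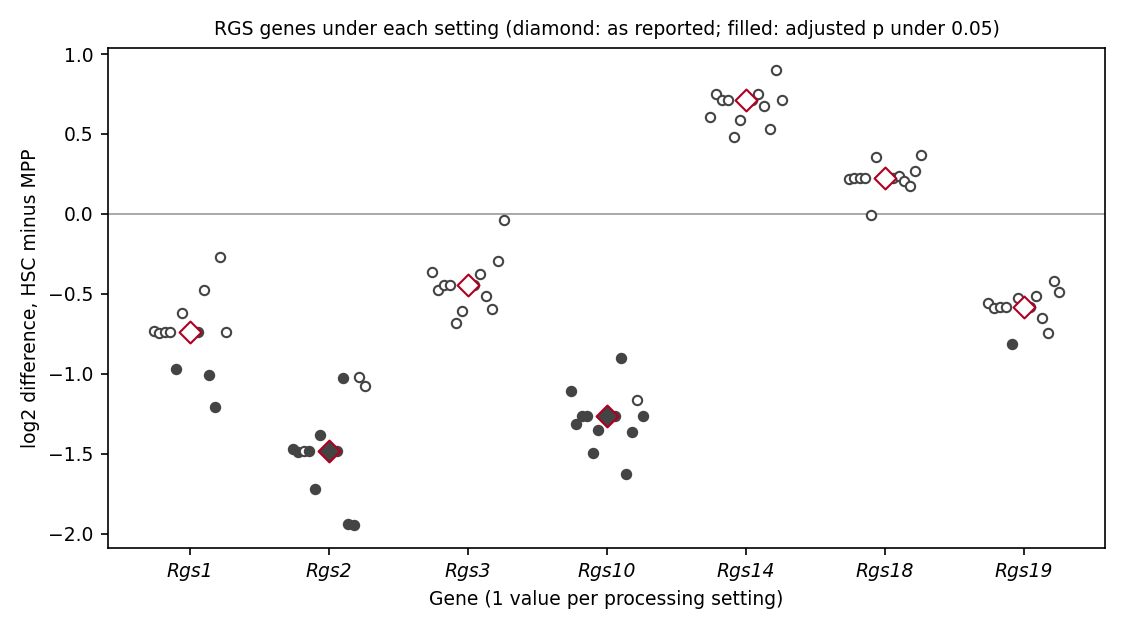
Log2 difference (HSC minus MPP) of the 7 tested RGS genes under each processing setting, with the reported value as a diamond and values with limma adjusted p under 0.05 filled. Rgs2 ranges from -1.95 to -1.02 and Rgs10 from -1.63 to -0.90, and the open points among them are settings in which the call was lost.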

How the data were processed

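The authors deposited 1 table with a linear intensity for each probe set and array, and what software produced it is not stated in the labels used here. The deposited values have a mean near 100.0 on every array once the lowest and highest 2% are left out, so the arrays had been scaled to 1 level. RNA was isolated with ISOGEN and amplified in 2 cycles, per the labels' protocols, which favours 3′ ends. The samples are named as biological replicates, but separate animals are not named. The spread behind each p-value is thus that between samples, and its technical part is not known.

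Of 45101 probe sets 64 controls were left out, and 34945 had 1 gene symbol, updated through gene identifiers to RefSeq. A pseudocount of 6.01, which is 0.25 of the median intensity, was added before taking log2, with no further normalization. Folds are on that scale, which understates changes of dim genes. A filter on mean level removed the lowest 40% of probe sets and kept 27022. HSC and MPP were compared with limma 3.58.1 (R 4.3.3; lmFit, eBayes with trend, 2-sided), with 2 residual and 8.48 prior degrees of freedom and adjustment over all tested probe sets. An exact permutation of 2 against 2 arrays cannot go below p = 0.333, so none was used. For each gene the tested probe set with the highest mean stood for the gene.

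Members and lists were chosen with earlier results of these data known. Named were all members and up to 4 genes of each pathway list. These were the 2 with the smallest p in each direction, or 2 where none was called. Also named were the called stem cell and progenitor markers, the 3 nearest profiles of each called member and chromosomal neighbours within runs of RGS genes. Csf1r, Mertk, Cd8a, Il2rb, Car2, Alas2, Slc4a1, Hba-a1, Rgs9, Rgs17, Rgs13, Rgs21 and Rgs8 were named after their values were seen, to complete counts, sums or runs. So were Vwf, Mpo, Prtn3, Ctsg, Elane, Ltf, Ngp, S100a8, S100a9 and Camp. The floor of an array was the maximum over 27 control probe sets for Bacillus subtilis transcripts.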

Additional observations from a re-analysis of the deposited data

How the results depend on the processing

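Leaving out 1 array at a time moved the member genes called lower between 0 and 3, member probe sets called lower between 2 and 5 and called higher between 0 and 1, and all probe sets called between 1026 and 2011 higher and 568 and 1908 lower. Without MPP replicate 2, where no member gene was called, 3 had an unadjusted p under 0.05. Without the trend in the prior variance limma called 0 member genes and 0 member probe sets (3 and 5 at an unadjusted p under 0.05), and 633 probe sets higher and 374 lower in all. With no filter on dim probe sets 1 member gene and 2 member probe sets were lower, and 917 and 780 probe sets were called. With array medians made equal 4 member genes were lower, with 1020 and 2379 probe sets called, and Rgs18 changed sign to -0.0099. That setting moves every log2 difference down by the same amount, that of Rgs18 from 0.22. After quantile normalization 1 member probe set, of Rgs18, was higher. With the mean of all tested probe sets of a gene 1 member gene was lower, Rgs10, and Rgs2 was at -1.07. That mean of Rgs2 takes in 1443250_at, at 0.50 and above the floor on 1 array of each group. The replicate number as a block gave 4 member genes lower (Rgs1 and Rgs19 besides Rgs2 and Rgs10), with 2525 probe sets higher. Same-numbered arrays deviated from their group means with a correlation of 0.027, so the block was not used as a pairing. Pseudocount, a stricter filter and probe set suffix left the counts of called member genes at 2. Of the members and other genes named with a difference, each by its brightest tested probe set, Rgs18 and Cd8a changed sign under an alternative. Cd8a was at -1.03 without probe sets ending in _x_at, _s_at or _a_at, where another probe set stands for it. The alternatives for genes outside the set and for lists were chosen after seeing the data. Beyond the number of arrays, signal over background limits Rgs16 and the dim probe sets of Rgs2 and Rgs3.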

Other observations

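By their brightest probe sets, all 7 tested RGS genes read higher on the replicate 2 array than on the replicate 1 array in both groups. The second probe set of Rgs18, 1449856_at, read lower on replicate 2 in both groups. The pattern of the brightest probe sets held for 15 of 17 immediate early genes and for 23.4% of all tested genes. The labels do not say that a number marks a shared day or preparation.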
